A study of Homo sapiens with 21 samples.

Results

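Exonic circular RNAs that carry no circBase identifier were taken from junction counts of FaDu cells, an established line of hypopharyngeal squamous carcinoma. A circle was a member when the authors' deposited table classed it as exonic and gave it no circBase ID, which held for 1587 of 6093 exonic circles and 8714 circRNAs of all classes. The remaining 4506 exonic circles have a circBase ID and served for comparison. The libraries were 3 of FaDu cells with IGF2BP3 knocked down under the name sh3-1, 3 with IGF2BP3 knocked down under the name sh3-2, and 3 of shCtr, labelled wild type with a blank control treatment. Each group has replicates A, B and C. The names sh3-1 and sh3-2 were read as separate hairpins against 1 gene, and the labels name neither the vector nor a clone. MeRIP (m6A immunoprecipitation) sequencing was labelled for 3 pairs of immunoprecipitate and input of sh3-2 and of shCtr, and only the authors' differences between these groups were used. Separate cultures are not stated for the replicates, and p-values then cover library-to-library spread that could be purely technical.

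A circular RNA forms when the splicing machinery joins the end of a downstream exon, the donor, back to the start of an upstream exon, the acceptor. Reads that cross this back-splice junction tell the circle from the linear RNA of its host gene. circBase is a catalogue of circles reported in earlier studies. IGF2BP3 is an RNA-binding protein that reads N6-methyladenosine (m6A), a methyl mark on RNA, and no member came from its own gene. Its 5 circRNAs held 0 to 5 junction reads per sh3-1 library, 0 to 6 per sh3-2 library and 0 to 6 per shCtr library, so the junction counts do not check the knockdown.

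The members came from 1146 host genes, of which 1047 matched a current or older symbol of the reference gene table. Of the members, 939 (59.2%) had a host that also gave a circBase exonic circle. For 79 members the deposited table names an earlier publication as source, and the other 1508 have no earlier source there. In 27 members (1.70%) the host is listed only by an identifier of the form G082922, which no table used here annotates, against 20 circBase exonic circles (0.444%). The lists of squamous epithelial, fibroblast and immune cell markers held 0 members, and 1 circBase exonic circle of a squamous marker host was found, so circles cannot check the cell type.

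The libraries were shallow and unlike in places. They held 5023 to 5846 junction reads with sh3-1, 3775 to 4168 with sh3-2 and 5502 to 5818 in shCtr, and where a circle has 0 counts its share could still reach 0.0513% to 0.0795% depending on the library (3 counts of the total). Each listed circle has at least 2 reads in some library, so a deeper library lists more rare circles. Libraries sh3-1 A and B shared 73 members that no other library held, and sh3-2 B and C shared 46, against 0 to 9 for the other 34 pairs of libraries. In 56 of the 73, library sh3-1 A had exactly 1 read, whereas sh3-1 B had 1 read in 3 of them. In 32 of the 46, library sh3-2 C had exactly 1 read, and sh3-2 B had 1 read in 7. What links these libraries was not tested, and comparisons of groups were repeated with each pair as 1 value.

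Members were rare, and most were seen in a single library. They held 5310 of 45285 junction reads (11.7%), with a median of 3 reads over all 9 libraries, against a median of 4 reads for circBase exonic circles, which held 30651 reads. Reads came from 1 library for 1262 members (79.5%), against 2151 circBase exonic circles (47.7%). Only 32 members (2.02%) had reads in 4 or more libraries, against 772 circBase exonic circles (17.1%), and 3 members had reads in all 9. The 79 members with a cited publication were seen in 2 or more libraries in 25 cases (31.6%), and the 1508 without one in 300 cases (19.9%).

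Within each library the same circles were set against circBase exonic circles. Of the members detected in a library, 39.8 ± 14% were seen in another library too, against 79.2 ± 5.10% of circBase exonic circles (mean ± SD, n = 9 libraries, lower in all 9, exact paired sign-flip permutation p = 0.0039, two-sided and the smallest possible here). The share was highest in the paired libraries, at 58.5% in sh3-1 A, 55.5% in sh3-1 B, 51.7% in sh3-2 B and 50.0% in sh3-2 C, and lay between 23.2% and 33.5% in the other 5. A circle found in several libraries counts in each of them. The 9 differences in this share are therefore not independent, and their p is only approximate. A detected member had 2.57 ± 0.339 reads, against 3.01 ± 0.404 reads for a detected circBase exonic circle, and was lower in all 9 libraries (exact permutation p = 0.0039). The difference was also seen at like read totals. Of circles with 4 reads in all, 114 of 184 members (62.0%) and 245 of 622 circBase exonic circles (39.4%) came from 1 library. With 5 or 6 reads these were 69 of 142 members (48.6%) and 128 of 694 circBase exonic circles (18.4%), as the plot of libraries per circle shows.

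**Figure D1:**
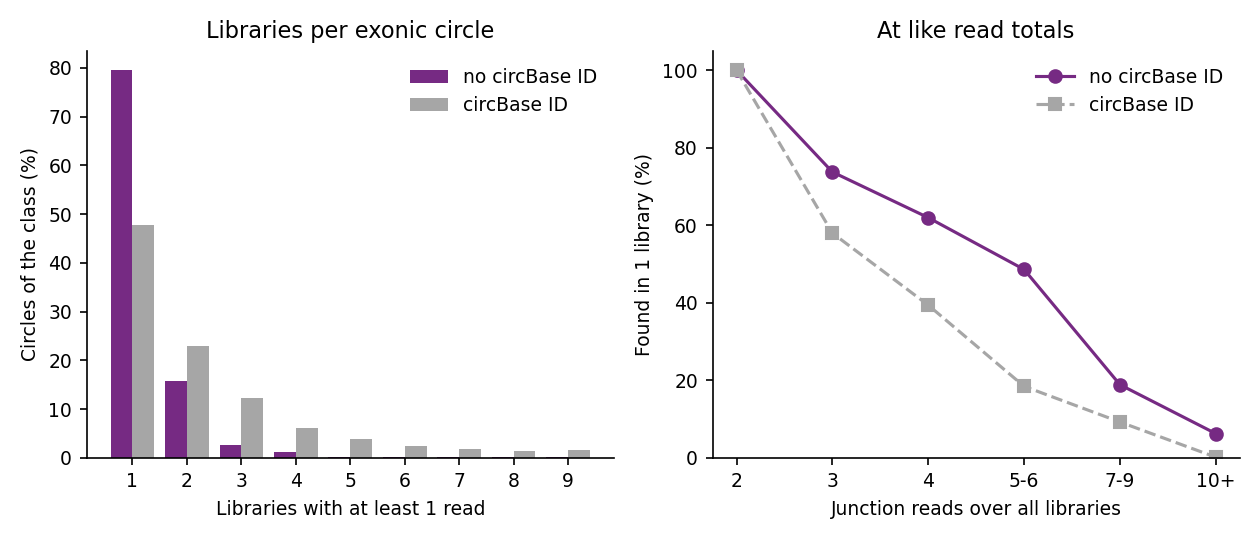
Left, the share of exonic circles (y axis, %) found in 1 to 9 libraries (x axis); right, the share found in 1 library (y axis, %) by total junction reads over all libraries (x axis). Purple marks the 1587 circles without a circBase ID and grey the 4506 with one; 79.5% of the purple and 47.7% of the grey circles were found in 1 library, and the purple line lies above the grey one from 3 reads on.

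Some circles reached several reads in 1 library and had none elsewhere. At least 5 reads in a single library were found for 81 members, which is 35.7% of the 227 members with at least 5 reads, against 173 circBase exonic circles (9.74% of 1777). Library sh3-1 A held 18 of these members and shCtr C held 26, while the sh3-2 libraries, the shallowest, held 3, 3 and 2. The circBase exonic circles of this kind were spread alike, with 39 in sh3-1 A, 41 in shCtr C and 11, 5 and 6 in sh3-2. The longest runs of this kind were 11 reads of a PIK3CA circle, 10 of a KIF14 circle, 9 of an IDE circle and 8 of a BRWD1 circle, all in sh3-1 A. PIK3CA encodes the catalytic subunit of a phosphoinositide 3-kinase, KIF14 a mitotic kinesin and IDE the insulin-degrading enzyme. A GAPVD1 circle had 8 reads in sh3-1 B. Whether such reads are copies of 1 molecule was not tested.

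Members were longer than circBase exonic circles. The median genomic span of detected members was 14101 ± 1437 bases, against 9541 ± 538 bases for circBase exonic circles (mean of 9 library medians ± SD, longer in all 9, exact permutation p = 0.0039). Over all circles, the authors' predicted spliced length had a median of 816 bases in members and 536 bases in circBase exonic circles. It exceeded 1000 bases in 626 members (39.4%) and 930 circBase exonic circles (20.6%). Members with a cited publication were shorter, with a median spliced length of 534 bases, against 847 bases for members without one, and these lengths are descriptions with no test.

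Most members used back-splice sites of their own. Of the 1587 members, 258 shared only their acceptor with a circBase exonic circle of these libraries, 144 only their donor and 28 both with different circles, and 1157 (72.9%) shared neither. Among circBase exonic circles, 2447 (54.3%) shared neither site with another circBase exonic circle. On hosts that gave circBase exonic circles, 424 of 939 members (45.2%) shared a site. Over all 4506 circBase exonic circles the share was 45.7%. That figure includes circles that are the only circBase exonic circle of their host, so these shares have unlike bases. In position, 240 members lay inside a circBase exonic circle of the same strand, 391 enclosed one and 884 (55.7%) overlapped none. Members lay on all autosomes and chromosome X. Members made up 26.0% of all exonic circles, 56 of 133 (42.1%) on chromosome X and 104 of 325 (32.0%) on chromosome 15, against 16.7% on chromosome 22 and 17.1% on chromosome 19. Hosts of the chromosome X members numbered 38 and included the ubiquitin ligase HUWE1 and the deubiquitinase USP9X with 4 members each, and these hosts were singled out after their values were seen.

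The most abundant member came from MYH9, the gene of the heavy chain of nonmuscle myosin IIA, and was its only circle here. Coordinates are those of the authors' table in hg19. The circle 22:36716843-36723533 (minus strand, transcript NM_002473, spliced length 378 bases) had 21, 26 and 17 reads in sh3-1 A, B and C, 32, 26 and 21 in sh3-2, and 16, 22 and 4 in shCtr. In raw reads library shCtr C was the lowest of all 9, and each hairpin's range overlaps that of shCtr. Per 1000 junction reads of the library the circle had 4.18, 4.45 and 2.97 in sh3-1, 8.27, 6.89 and 5.04 in sh3-2, and 2.91, 3.96 and 0.688 in shCtr. On that scale all sh3-2 libraries lay above all shCtr libraries, while sh3-1 and shCtr overlapped. Its 185 reads were 3.48% of all member reads.

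The remaining abundant members had fewer reads per library and were less even. A circle of RP11-632K20.7 (15:32819014-32825569) had 2, 9 and 5 reads in sh3-1, 3, 4 and 2 in sh3-2, and 3, 4 and 14 in shCtr. A circle of NBPF1 (1:16891302-16893846), a neuroblastoma breakpoint family member, had 1, 5 and 1 in sh3-1, 6, 5 and 3 in sh3-2, and 4, 0 and 12 in shCtr. In both, shCtr C was the highest library and the groups overlapped. NBPF1, SMA4 and MRPL45P2 belong to families with closely similar copies, so the place of their reads is uncertain. A circle of AHSA2 (2:61406116-61413632), related to an HSP90 co-chaperone, had 2, 0 and 6 reads in sh3-1, 2, 1 and 1 in sh3-2, and 2, 2 and 3 in shCtr. A circle of the membrane protein gene MCTP2 (15:94841430-94858866) had 1, 0 and 2 reads in sh3-1, 0, 0 and 1 in sh3-2, and 1, 3 and 8 in shCtr. An RDX circle (11:110135504-110150481), from the gene of the membrane-to-actin linker radixin, had 1, 10 and 0 reads in sh3-1, 1, 0 and 1 in sh3-2, and 0 in all shCtr libraries. Of the 20 most abundant members, 8 had their highest count in shCtr C and 5 in sh3-1 B. Together these 20 held 531 reads, 10% of the member reads.

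**Figure D2:**
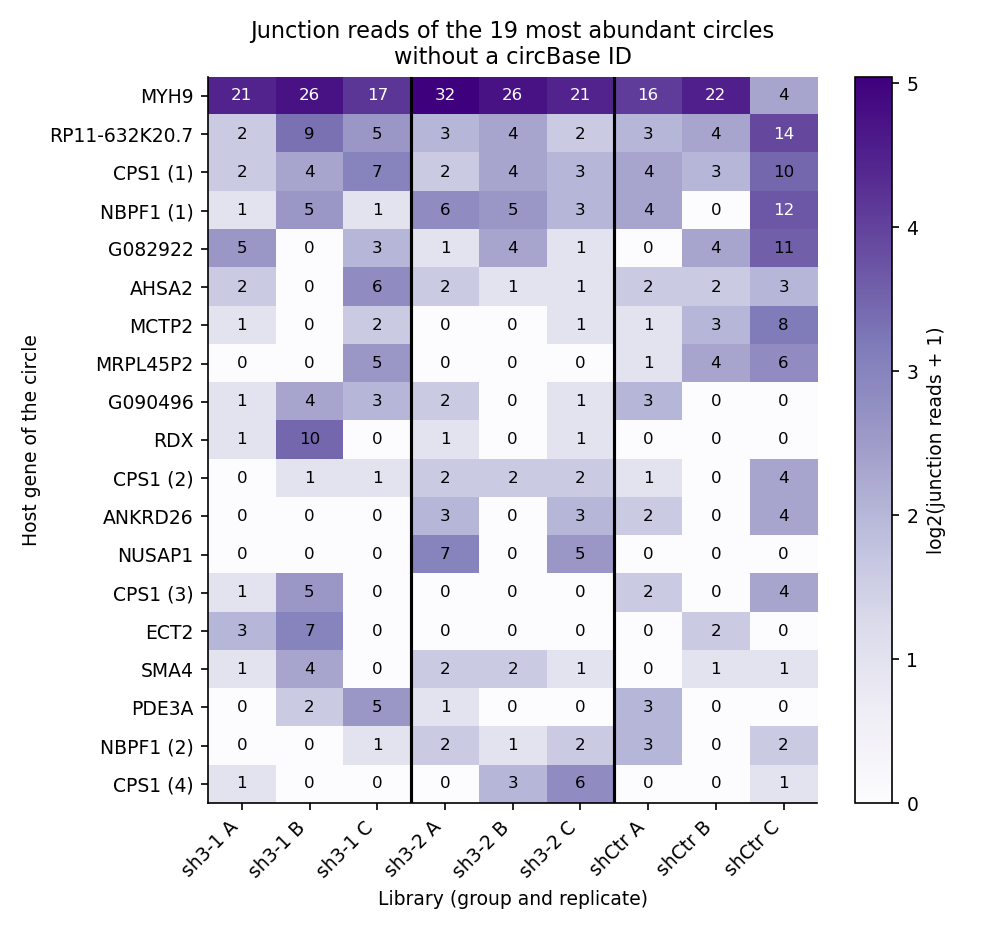
Junction reads (numbers; colour, log2 of reads + 1) of the 19 most abundant circles without a circBase ID, by host gene (rows; a number in brackets tells circles of 1 host apart) and library (columns, sh3-1, sh3-2, then shCtr). MYH9 had reads in all 9 libraries, with 32 in sh3-2 A as its highest and 4 in shCtr C as its lowest.

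CPS1 gave the most members. It encodes mitochondrial carbamoyl-phosphate synthetase, the entry enzyme of the urea cycle. Its 22 members lay within 2:211421443-211541860 on the plus strand, held 141 reads and included 9 found in 2 or more libraries, while no exonic circle of CPS1 has a circBase ID. The acceptor at 2:211421443 was used by 9 of them, with 98 reads over all 9 libraries, so a single start was joined from 9 donors. The acceptor at 2:211438022 was used by 4 members with 15 reads. The most abundant circle (2:211421443-211481265, spliced length 2702 bases) had 2, 4 and 7 reads in sh3-1, 2, 4 and 3 in sh3-2, and 4, 3 and 10 in shCtr. Another with the same acceptor (2:211421443-211477017) had 1, 0 and 0 reads in sh3-1, 0, 3 and 6 in sh3-2, and 0, 0 and 1 in shCtr. Donors joined to 1 acceptor thus differed in the libraries that held them, at counts too low for a test.

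Summed over its 22 members, CPS1 had 2.19, 2.05 and 2.27 junction reads per 1000 in sh3-1, 1.81, 3.97 and 4.56 in sh3-2, and 3.45, 3.96 and 3.95 in shCtr. The sh3-1 libraries all lay below the shCtr libraries, and those of sh3-2 overlapped them. Among the 8 hosts with the most members, this separation was found with sh3-1 for CPS1 and for G082922 and with sh3-2 for 0. A full separation of 3 against 3 libraries has an exact permutation p no smaller than 0.1. How many of all hosts separate in this way was not counted. The host listed as G082922 had 7 members and no circBase exonic circle, at 0.995, 1.03 and 0.523 reads per 1000 in sh3-1, 2.07, 1.32 and 0.240 in sh3-2, and 1.45, 1.44 and 2.75 in shCtr. These sums were not tested. The other 6 hosts, with 6 members each, were MCTP2, the RNA editing enzyme ADARB1, the cytokinesis exchange factor ECT2, the apoptosis inhibitor and ubiquitin ligase BIRC6, CCDC18 and LMO7. HEATR5A also had 6 members and stands outside these 8 hosts by its fewer reads, 14 in all. All 6 members of ADARB1 were found in 2 or more libraries, against 1 of 6 for each of BIRC6, CCDC18 and LMO7 and 0 of 6 for HEATR5A.

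**Figure D3:**
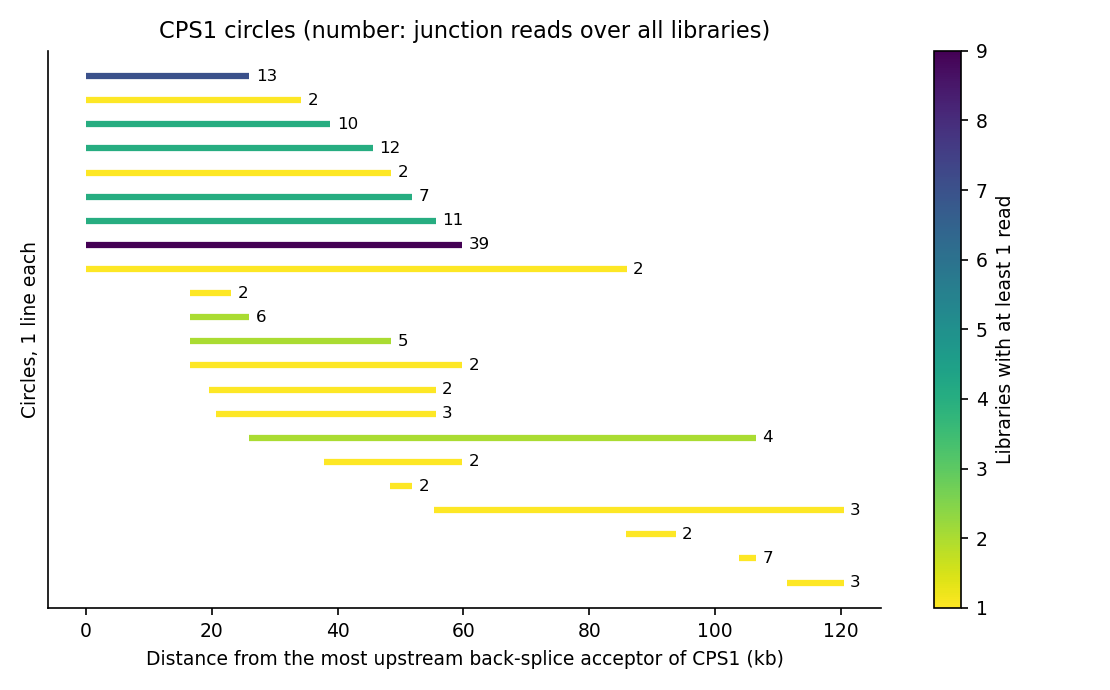
The 22 CPS1 circles as lines from acceptor to donor (x axis, kb from the most upstream acceptor, one row per circle), with total junction reads at the right end and colour for the number of libraries. The upper 9 lines begin at the same acceptor, and the line with 39 reads is the only one found in all 9 libraries.

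Several members shared a site with the main circBase circle of their host, as 269 did in all. The NUSAP1 member (15:41657600-41669502), from the gene of a spindle-associated protein, has the same donor as hsa_circ_0008346 (15:41648237-41669502). It had 0 reads in all sh3-1 libraries, 7, 0 and 5 in sh3-2, and 0 in all shCtr libraries. The circBase circle had 0, 0 and 5 reads in sh3-1, 8, 2 and 8 in sh3-2, and 6, 0 and 1 in shCtr. Reads of the member were thus limited to sh3-2 A and C, where the circBase circle also had its highest counts. For ECT2 the member (3:172479400-172504364) had 3, 7 and 0 reads in sh3-1, 0 in all sh3-2 libraries and 0, 2 and 0 in shCtr. Its circBase circle with the same donor, hsa_circ_0003975, had 0 in all sh3-1 libraries, 3, 0 and 5 in sh3-2 and 0 in all shCtr libraries, so no library held both. Members of PDE3A, ADARB1 and TIAL1 with a shared site had 9 or 10 reads over 3 or 4 libraries. In SMAD2, a transducer of TGF-beta signalling, a member (18:45422892-45423180) of 289 bases had 2, 1 and 0 reads in sh3-2, 1 read in shCtr A and 0 elsewhere. The abundant circle hsa_circ_0000847, which ends at the same position on hg19, had 81 reads in all 9 libraries.

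The share of junction reads on members did not differ between groups beyond the replicate spread. It was 11.9 ± 0.555% with sh3-1 and 11.8 ± 1.33% in shCtr (SD, n = 3 each, exact two-sided permutation p = 1). With sh3-2 it was 11.2 ± 0.714%, against 11.8 ± 1.33% in shCtr (n = 3 each, exact p = 0.6). The 6 hairpin libraries together had 11.6 ± 0.688% (exact p = 0.738, against 3 shCtr libraries). With 3 against 3 libraries the smallest p is 0.1. In bulk RNA, fewer cells with a circle and fewer copies per cell cannot be told apart. Wilson 95% intervals of single libraries, which cover counting error only, ran from 9.54% to 13.2% in the hairpin libraries and from 9.81% to 14.1% in shCtr. As a share of exonic reads alone, members had 14.9 ± 0.473% with sh3-1, 14.6 ± 1.04% with sh3-2 and 14.8 ± 1.66% in shCtr (exact p = 1 for each hairpin), and 14.7 ± 0.742% over both hairpins (exact p = 0.94).

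Fewer members were detected with sh3-2 when libraries were thinned to 3775 reads. The thinned counts were 216 ± 18.1 with sh3-1 and 235 ± 7.86 in shCtr (n = 3 each, exact permutation p = 0.3). They were 183 ± 9.81 with sh3-2, from 175 to 194, against 230 to 244 in shCtr (exact p = 0.1, the smallest possible). Over both hairpins they were 200 ± 22.1 (exact p = 0.0714, 6 against 3 libraries). The listing rule bears on this, since a circle had to reach 2 reads at full depth and the sh3-2 libraries were the shallowest. When 2 reads were asked for after thinning, the difference of sh3-2 from shCtr turned to 5.32 members more (exact p = 0.7). The difference of both hairpins from shCtr, −35.1 members, was −1.48 (exact p = 0.881) with 2 reads asked for. It was −16.9 (exact p = 0.119) when hosts with no circBase exonic circle were left out, and −42.6 (exact p = 0.0179) without sh3-1 C. Leaving out any other single library gave an exact permutation p from 0.0893 to 0.143. Before thinning, detected members numbered 176, 180 and 200 in sh3-2 A, B and C, and 259, 272 and 253 in shCtr. Detected circBase exonic circles numbered 916, 957 and 1116 in sh3-2, and 1325, 1348 and 1116 in shCtr. Their thinned number was not computed, so whether the difference is particular to members was not tested.

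**Figure D4:**
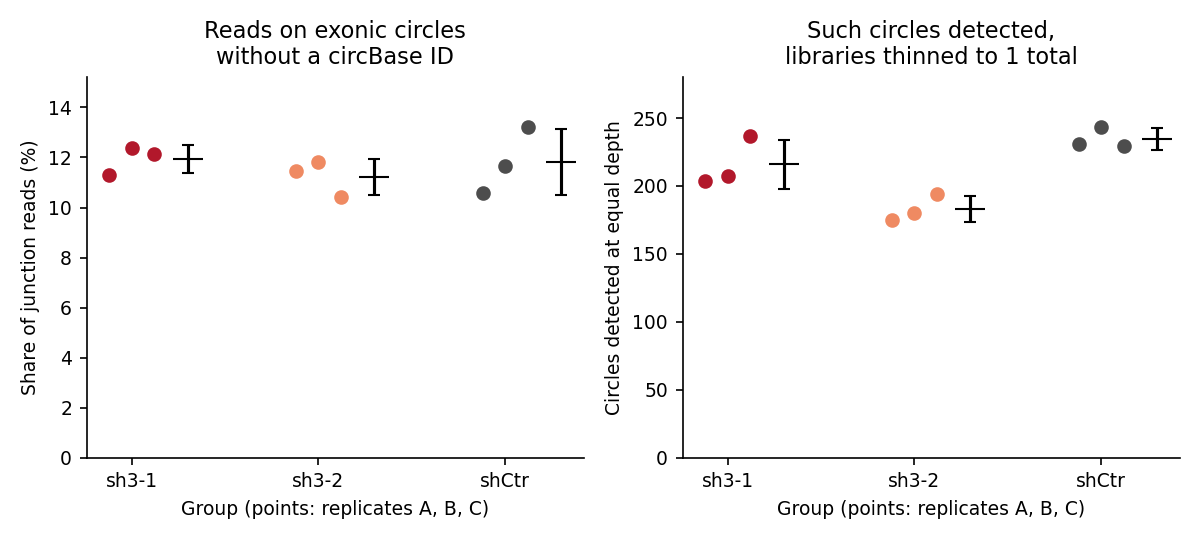
Share of junction reads on exonic circles without a circBase ID (left, y axis in %) and the number of such circles detected after thinning each library to 3775 reads (right), by group (x axis). Points are libraries and black marks are mean ± SD (n = 3); the shares overlap in all groups, and the sh3-2 points on the right (175 to 194) lie below those of shCtr (230 to 244).

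Most members had reads in a single group. Of the 1587 members, 478 (30.1%) had reads only in sh3-1, 358 (22.6%) only in sh3-2 and 586 (36.9%) only in shCtr, while 28 (1.76%) had reads in all 3 groups. For circBase exonic circles these were 890 (19.8%), 657 (14.6%), 1100 (24.4%) and 736 (16.3%). The order of the groups is the same in both classes. Each count rests on circles found in 1 or a few libraries, and the groups differ in depth.

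Only the MYH9 member had enough reads for the test of single circles. EdgeR's quasi-likelihood test with its default filter kept 33 circRNAs for sh3-1 and 24 for sh3-2, of which 0% and 0% passed a Benjamini-Hochberg adjusted p of 0.05. Of these, 2 for sh3-1 and 1 for sh3-2 had an unadjusted p under 0.05, and DESeq2 called 0 for each hairpin. The MYH9 circle averaged 21.3 ± 4.51 reads with sh3-1, against 14 ± 9.17 in shCtr, a log2 fold change of 0.59 (SE 0.69, edgeR adjusted p = 0.85). With sh3-2 it averaged 26.3 ± 5.51 reads, against 14 ± 9.17 in shCtr, a log2 fold change of 1.30 (SE 0.48, edgeR adjusted p = 0.202). The unadjusted edgeR p was 0.392 with sh3-1 and 0.00841 with sh3-2, so only the sh3-2 difference was under 0.05 before the correction, and it failed that. Both differences use the same shCtr libraries. Without shCtr C they were 0.32 and 0.87. With a filter of 10 reads in place of the default, 21 members were tested with sh3-1 (11 higher, 10 lower) and 14 with sh3-2 (8 higher, 6 lower), and 0 of them were called by edgeR. Unadjusted p-values under 0.05 were given to 4 and 3 of these. The members' median log2 fold changes under this filter were 0.24 with sh3-1 and 0.45 with sh3-2, against 0.19 and −0.06 over all 509 and 387 circRNAs tested.

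In the authors' deposited table, an unadjusted p under 0.05 with a fold of at least 2 marked 4 members as higher and 2 as lower among 1229 listed for sh3-1, or 0.325% and 0.163%. The background over all 7021 circRNAs listed there was 0.385% higher and 0.641% lower. For sh3-2 it marked 1 member as higher and 1 as lower among 1109 listed, or 0.0902% each way, against a background of 0.346% higher and 0.331% lower over 6648 circRNAs. The smallest adjusted p of a member in the authors' deposited table was 0.512 for sh3-1 and 0.558 for sh3-2. The members marked higher with sh3-1 include the PIK3CA, KIF14 and IDE circles named above, whose reads were all in sh3-1 A. The members marked lower were a PDE3A circle (12:20774230-20803534), from a phosphodiesterase gene, with 0 reads in all sh3-1 libraries and 0, 4 and 5 in shCtr, and an ANKRD26 circle (10:27311487-27322306) with 0 in all sh3-1 libraries and 2, 0 and 4 in shCtr. With sh3-2 the NUSAP1 circle was marked higher (7, 0 and 5 reads, against 0 in shCtr). The MRPL45P2 circle (17:45560358-45568558), from a pseudogene of a mitochondrial ribosomal protein, was marked lower (0 in all sh3-2 libraries, against 1, 4 and 6 in shCtr). No member was marked with both hairpins.

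The host lists differed in how often their exonic circles lacked a circBase ID. Among genes often described as circRNA hosts, 24 of 176 exonic circles (13.6%) were members, against 26.0% of all exonic circles. They include a circle of ESYT2, a lipid transfer protein of membrane contact sites, with 1 read in sh3-1 A, 8 in sh3-1 B and 0 elsewhere. Members made up 18.0% of the exonic circles of chromatin regulators and 19.0% of those of ubiquitin ligases and deubiquitinases. Examples are a circle of CHD2, a chromatin remodeller (1 and 5 reads in sh3-1 A and B), and one of USP24, a deubiquitinase (6 reads in sh3-1 C). They made up 22.5% for small GTPase regulators, 17.6% for receptor kinase, PI3K and MAPK genes, and 16.7% for RNA helicases, splicing and translation factors. The PIK3CB circle, from another phosphoinositide 3-kinase catalytic subunit, had 6 reads in sh3-1 B, and a LARP1 circle, from an RNA-binding regulator of translation, had 1 and 5 reads in sh3-1 A and B. Both were at 0 in sh3-2 and shCtr. Other circles of these lists had their reads elsewhere, with 5 in shCtr A for RABGAP1L, 4 in shCtr C for CHD9 and 5 in sh3-2 C for BIRC6. A UBAP2 circle had 1 and 3 reads in sh3-1 A and B and 3 in shCtr A.

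Hosts of matrix and adhesion genes had the highest share, with 18 of 33 exonic circles (54.5%) as members. These came from 11 hosts, 16 of the 18 were found in 1 library, and none had more than 4 reads. They include 4 circles of PLOD2, a collagen lysyl hydroxylase, 3 of the metalloprotease ADAM9, 2 of ADAM17 and 2 of the collagen COL12A1. The TGF-beta and SMAD list had 6 members of 18 exonic circles (33.3%), among them 1 of the receptor TGFBR2 with 1 and 3 reads in sh3-1 A and B. The list of m6A machinery and circRNA biogenesis had 14 members of 42 (33.3%), of which ADARB1 gave 6. Single members of that list came from IGF2BP2, a relative of IGF2BP3, with 2 and 1 reads in sh3-2 B and C, from METTL14, a subunit of the m6A writer, with 2 reads in sh3-1 C, and from YTHDF2, an m6A reader, with 2 reads in shCtr A.

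Members of centrosome, kinesin and mitosis hosts numbered 30 of 102 exonic circles (29.4%), from 22 hosts. Their summed level was 4.58, 1.37 and 1.74 junction reads per 1000 in sh3-1, 3.62, 3.71 and 2.88 in sh3-2, and 0.909, 1.44 and 1.55 in shCtr. The sh3-2 libraries lay above all shCtr libraries, and those of sh3-1 overlapped them. Of the 10 lists with members, 2 separated sh3-2 from shCtr in this way and 0 separated sh3-1. The other was that of chromatin regulators, which ran the opposite way, at 0.517, 0.53 and 0.96 reads per 1000 in sh3-2 and 1.09, 2.16 and 1.55 in shCtr. Of the 30 members, 16 had reads in sh3-2, 9 in sh3-1 and 9 in shCtr, and 23 were found in 1 library, so the sum is made of circles that differ between groups. With sh3-2 these include circles of KIF11, a spindle motor (4 reads in sh3-2 B), PCNT, a pericentriolar scaffold (4 in sh3-2 A), and STAG2, a cohesin subunit (3 in sh3-2 A). In sh3-1 A, KIF14 with 10 reads and the spindle assembly factor TPX2 with 6 made up most of the level. The KIF18A circle 11:28056934-28058211, from a kinesin of chromosome alignment, had 0 reads in all sh3-1 libraries, 1, 0 and 2 in sh3-2, and 1, 0 and 3 in shCtr. No p is given for the lists, since they were chosen with earlier results known. With 3 against 3 libraries even a full separation has an exact permutation p no smaller than 0.1. The circBase exonic circles of these lists were not compared between groups.

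The m6A site values are the authors' own, as a fold of sh3-2 against shCtr with an adjusted p, and hold no value per library. The sheets leave it unstated whether folds were corrected for input. The sites of a circle lie in exons that the linear RNA of the host can share. Sites were listed for 487 members (30.7%) and 1235 circBase exonic circles (27.4%), with 1937 and 3493 entries. An adjusted p under 0.05 was given to 113 member entries as higher (5.83%) and 92 as lower (4.75%). Over all 14885 entries the background was 4.47% higher and 4.53% lower. The median fold of the called member sites was 1.42 among higher and 1.53 among lower ones, and 19 of the 205 had a fold of at least 2.

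**Figure D5:**
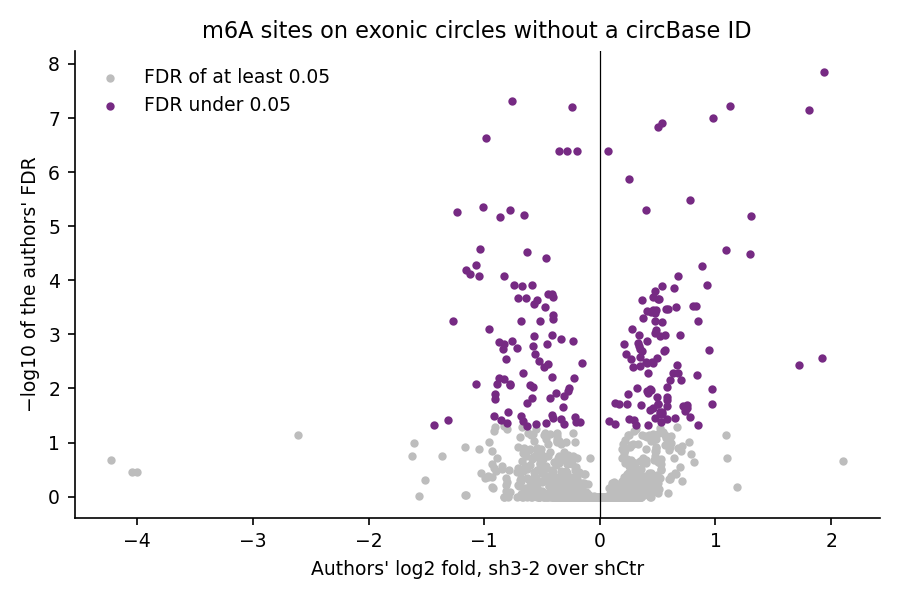
The 1937 m6A site entries on exonic circles without a circBase ID, by the authors' log2 fold of sh3-2 over shCtr (x axis) and −log10 of the authors' adjusted p (y axis). Purple points are the 205 entries with an adjusted p under 0.05, 113 to the right of 0 and 92 to the left.

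The smallest adjusted p on a member belonged to EPB41L4A, a FERM-domain protein gene. Its circle (5:111530265-111616020) had 4 sites, of which 3 were called and higher with sh3-2, the one at 5:111570331-111570420 by 3.83-fold in the authors' deposited table (adjusted p = 1.41e-08). A site of 7 bases at the end of the circle of VAV3, a guanine nucleotide exchange factor, was higher by 3.50-fold and one in GPR107 by 2.18-fold. Higher sites were also given for SRGAP2C (1.97-fold), a recent duplicate of SRGAP2 whose reads are uncertain for that reason, the Polycomb-related SFMBT1 (1.45-fold) and the scaffold gene ERC1 (1.42-fold). Lower sites were given for METAP1, a methionine aminopeptidase (1.69-fold lower), the zinc finger gene HIVEP1 (1.18-fold lower) and PHLDB2 (1.28-fold lower). The circle listed under G037413 (18:45391430-45456817), which shares a back-splice site with the SMAD2 circle hsa_circ_0000847, had a site lower by 1.98-fold and 3 junction reads, all in shCtr A. Each of these 10 circles had 2 to 5 junction reads in 1 library, so the sites rest on far rarer circles than the abundant members. The reads of the EPB41L4A and VAV3 circles were all in sh3-1 B and those of HIVEP1 in sh3-1 C. These circles thus had no junction read in the groups that the m6A folds compare. The remaining circles had their reads in an sh3-2 or shCtr library.

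Members with several called sites had them in 1 direction, as did all but 2 such circBase exonic circles. A site that is also listed for another circRNA is repeated in 165 member entries. Called sites numbered 2 or more in 47 members, and in 0 of these did the directions differ, against 2 of 58 circBase exonic circles and 55 of 272 circRNAs of all classes. Listed sites reached 23 on a member and 140 on a circRNA of any class, so the last share has an unlike base. A circle of the zinc finger gene ZNF462 (9:109685635-109701388) had 5 called sites, all higher. The circle of the histone methyltransferase gene KMT2C had 4, all higher. LMAN1, a cargo receptor of the secretory pathway, had 4, all lower. Among the 20 most abundant members, sites were listed for 4, among them MYH9 and both circles of NBPF1, and called for 1. The NBPF1 circle of 37 reads had 3 called sites of 4, higher by 1.23-fold to 1.46-fold, while the 5 sites of MYH9 gave 0 calls. Of the 134 members with a called site, 109 were found in 1 library, and 39 had no junction read in sh3-2 or shCtr, the groups the m6A values compare. The authors' p and fold with sh3-2 and an m6A call were both met by 3 of all circRNAs, of which 0 were members, too few to set the members apart.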

How the data were processed

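Junction reads of 9 FaDu circRNA-seq libraries were analysed. The tools named by the submitters' processing notes are STAR 2.5.1b, cutadapt 1.9.3 and edgeR 3.16.5, with hg19 as build, circRNA and m6A callers not given in the sources used here. Ribosomal RNA depletion and strand-specific libraries are described in the labels' protocols. Per the file headers, the deposited counts are back-splice junction reads with no normalization, and the authors' log2 fold changes and p-values stand beside them. The authors' m6A sheets give a fold (ratio), a p-value and its −log10. The 24 deposited columns of log2 CPM were not used. A circle absent from a hairpin's sheets was given 0 reads.

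All circRNAs entered the fits (edgeR 4.0.16, glmQLFit with robust estimation, TMM, filterByExpr, two-sided, Benjamini-Hochberg, with DESeq2 1.42.0 as alternative, R 4.3.3). The edgeR fit was tested on simulated counts set far above the observed ones. That check therefore does not cover circles as rare as most members. Library values were compared by exact permutation tests (Python 3.11.15, numpy 2.4.6, pandas 2.3.3, scipy 1.17.1; figures with matplotlib 3.10.9). Thinned detection is the expected number under hypergeometric sampling. PCR copies are not marked, and intervals and floors hold for counting error alone. The members, the 13 host lists and the named circles (the 20 with the most reads, tested members, members by the authors' p and fold, the 8 hosts with the most members, the 10 smallest m6A adjusted p-values, up to 3 members per list and 5 with a shared site) were chosen with earlier results of these data known. Of the circles this rule names, 1 is not reported here.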

Additional observations from a re-analysis of the deposited data

Results flagged for a closer look

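The share of detected circles with 1 read was lower in members than in circBase exonic circles in 8 of 9 libraries, by differences of −9.39 to −19.5 percentage points, but in sh3-1 A members were higher by 1.26 points (35.4% against 34.1%), far from the other libraries. That library shares 73 members with sh3-1 B alone and had 1 read in 56 of these. Over all 9 libraries members had 15.2 ± 9.40% and circBase exonic circles 27.2 ± 7.30% (exact paired permutation p = 0.0078). A circle found in 1 library has at least 2 reads there by the listing rule, so a count of 1 read is possible only in circles found in 2 or more libraries.

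The CPS1 circle 2:211421443-211447433 lay above the shCtr mean in every sh3-2 library and below it in every sh3-1 library. Its mean was 0.509 junction reads per 1000 with sh3-2 and 0.115 with sh3-1, a difference of 0.394, and 0.290 in shCtr. The counts were 2, 2 and 2 reads with sh3-2, 0, 1 and 1 with sh3-1, and 1, 0 and 4 in shCtr. The difference was not tested, and 20 circles were looked at in this way.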

How the results depend on the processing

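No group comparison of the members' share of reads passed a threshold under any alternative, and its sign was not stable. In percentage points, leaving out 1 library at a time moved the difference in the share of junction reads between −0.51 and 0.809 with sh3-1, −1.21 and 0.109 with sh3-2, and −0.861 and 0.459 with both hairpins. For the share of exonic reads the ranges were −0.67 to 0.965, −0.975 to 0.66 and −0.823 to 0.813. Asking for 2 reads per circle and library turned the sh3-1 differences to −0.173 and −0.361. Leaving out the MYH9 circle, tried after seeing the data, turned them to −0.0292 and −0.101. Leaving out hosts with no circBase exonic circle turned those of both hairpins to 0.0909 and 0.227. Leaving out members with a cited publication, also tried after seeing the data, turned the exonic shares to 0.178 with sh3-2 and 0.165 with both hairpins. The cause of these turns was not tested. The thinned difference in detected members with sh3-2 turned to 5.32 when 2 reads were asked for, was −28.6 without hosts lacking a circBase exonic circle, and ran from −57.0 to −47.0 without single libraries. For both hairpins it was −1.48 and −16.9 under the same changes, and ran from −42.6 (without sh3-1 C) to −30.3. With sh3-1 it was −8.27 and −5.25, against −18.8, and ran from −29.2 (without sh3-1 C) to −12.8.

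EdgeR's count of calls for sh3-2 was 1 in place of 0 with a filter of 10 reads, the circBase circle of GDI2, and 0 under the other alternatives run, which for sh3-1 gave 0 throughout. The MYH9 log2 fold change stayed positive under 15 alternatives per hairpin, from 0.32 to 1.05 with sh3-1 and from 0.87 to 1.68 with sh3-2, with adjusted p-values of 0.509 to 0.976 and 0.132 to 0.698. The comparisons of members with circBase exonic circles within libraries kept their direction and side of the threshold under all alternatives run, including each library pair as 1 value.

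No pairing by the letters A to C was seen over 726 circRNAs. Same-letter libraries correlated at −0.0302 to 0.0609 and different-letter libraries at −0.0552 to 0.0533. At counts this low such correlations cannot exclude a pairing. With a replicate block the MYH9 log2 fold changes were 0.71 and 1.40 and 0 circRNAs were called for each hairpin. The paired differences in shares were 0.105 and −0.594 of junction reads and 0.067 and −0.238 of exonic reads (exact p = 1 each), and those in detected members were −18.8 (exact p = 0.5) and −51.5 (exact p = 0.25, the smallest possible).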

Other observations

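Back-splice sites used by several members were also found outside CPS1. The acceptor of CCDC18 at 1:93648917 was used by 4 members with 12 reads, that of the kinase gene NEK9 at 14:75590926 by 4 with 10 reads, and that of the nucleolar deubiquitinase gene USP36 at 17:76834832 by 4 with 16 reads. A donor of ECT2 at 3:172504364 was shared by 3 members with 18 reads and one of MCTP2 at 15:94928754 by 3 with 16 reads. In all, 208 members shared their acceptor with another member and 106 their donor.

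By genomic span, the share of circles with a listed m6A site was 30.7% in members and 31.8% in circBase exonic circles up to 5000 bases, and 46.6% of 131 members and 31.0% of 210 circBase exonic circles above 50000 bases. The median reads were 3 in both classes above 50000 bases. Site entries that touch an end of their circle made up 28.2% in members and 45.2% in circBase exonic circles. Members with a site had 3.98 entries each, and circBase exonic circles with a site had 2.83. The share at an end can fall as entries per circle rise, so these shares have unlike bases.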
